A study of Mus musculus with 9 samples.

Results

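The NF-kB transcription factor subunits are 5 genes of the mouse, Nfkb1, Rela, Rel, Nfkb2 and Relb, taken by their symbols from a table of read counts for 49671 genes. All 5 were found and all 5 had enough reads to be tested, as did 18374 genes in all. On the mm10 build Nfkb1 (ENSMUSG00000028163) lies on chromosome 3 from 135584655 to 135691547, Rel (ENSMUSG00000020275) on chromosome 11 from 23736847 to 23770970, and Relb (ENSMUSG00000002983) on chromosome 7 from 19606217 to 19629438, all on the minus strand. Rela (ENSMUSG00000024927, 5637483 to 5648130) and Nfkb2 (ENSMUSG00000025225, 46304320 to 46312385) both lie on the plus strand of chromosome 19. Nfkb1, Rela and Rel are treated here as the canonical subunits and Nfkb2 and Relb as the noncanonical ones.

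The cells were CD3+ T cells enriched on columns from spleens of female F1 mus x cast mice, whose C57BL/6 mothers carried a heterozygous Xist deletion and whose fathers were M. m. castaneous (spelled as in the labels). Such hybrids are a model of skewed X inactivation, and all 9 libraries share this background; the age of the mice is not given in the sources used here. There were 3 groups of 3 libraries: unstimulated cells put into TRIzol right after enrichment, cells stimulated for 48 hours with plate-bound anti-CD3 (1 µg/ml) and soluble anti-CD28 (10 µg/ml), and cells stimulated in the same way with IMD-0354 at 2.5 µM, called the inhibitor group. IMD-0354 is a small molecule known as an inhibitor of the kinase IKK-beta. No vehicle is named for the stimulated cultures and no unstimulated culture is among the groups, so stimulation and 48 hours of culture cannot be told apart. The labels call the libraries biological replicates without naming separate animals, so the tests measure the spread between samples, which may be technical.

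NF-kB proteins bind DNA as dimers through a shared Rel homology domain. Rela, Rel and Relb carry activation domains, whereas Nfkb1 and Nfkb2 encode the precursors p105 and p100, which are processed to p50 and p52. In the canonical route, antigen receptor signals pass through adaptor proteins to the IKK complex, which marks IkB proteins for destruction and frees dimers such as those of Rela or Rel with p50. In the noncanonical route the kinase NIK, encoded by Map3k14, and IKK-alpha, encoded by Chuk, drive the processing of p100, which releases dimers of Relb with p52. Rel is known in T cells for its part in the transcription of Il2. The genes of several subunits are themselves known targets of NF-kB. The counts report transcripts only, and neither processing, nuclear entry nor protein was measured.

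Total counts were 34009988 to 56221174 per library, and each member had between 1445 and 35092 counts in every library. Inhibitor library 1 stood apart, with 30106 genes detected, where the other 8 had 20547 to 23223. All 8 T cell markers (among them Cd3d, Cd3e and Lck) had counts in every library, with a summed level of 1390 to 2160 CPM before stimulation, 1771 to 1893 after it and 1722 to 1819 with the inhibitor. The summed level of 15 myeloid and dendritic cell markers was 1259 to 2470 CPM before stimulation, 55.1 to 58.5 after it and 131 to 172 with the inhibitor. For 12 B cell markers these ranges were 1003 to 2930, 81.6 to 90.1 and 159 to 162 CPM. CPM are read counts relative to library size, scaled with TMM factors. In bulk RNA, fewer cells of a type and less RNA per cell cannot be told apart.

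The stretch of DNA before the start of Rel and of Nfkb2 is shown because NF-kB dimers are known to bind kB sites in promoters, and because both genes were among those that rose in every comparison below. The sequences come from RefSeq (GRCm38.p6), in which 3 of the 5 members were matched, with 5 windows of 250 bases before a start. Capitals mark matches to the kB consensus, searched on both strands with overlapping matches merged. For Rel, 249 bases on the minus strand (chr11:23770971-23771219) held 1 matched place, 92 to 82 bases before the RefSeq start. The last base of the 250, in an annotated exon, is not printed but is counted in these distances.
Rel window: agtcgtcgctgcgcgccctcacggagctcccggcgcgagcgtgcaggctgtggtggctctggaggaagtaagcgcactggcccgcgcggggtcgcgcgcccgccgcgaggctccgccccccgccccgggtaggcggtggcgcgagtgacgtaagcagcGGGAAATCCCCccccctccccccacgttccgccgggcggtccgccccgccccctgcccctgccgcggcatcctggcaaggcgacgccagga

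The 3 windows of Nfkb2 held 4 matched places, each shown as 30 bases on the plus strand of chromosome 19.
Nfkb2 start 1, 39 to 29 bases before it (chr19:46304688-46304717): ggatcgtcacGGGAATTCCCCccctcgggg
Nfkb2 start 1, 11 to 2 bases before it (chr19:46304716-46304745): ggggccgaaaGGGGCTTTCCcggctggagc
Nfkb2 start 2, 236 to 227 bases before it (chr19:46305449-46305478): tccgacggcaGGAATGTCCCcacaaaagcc
Nfkb2 start 3, 225 to 216 bases before it (chr19:46305695-46305724): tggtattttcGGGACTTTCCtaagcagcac

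A match to the kB consensus was found in 7.25% of all 32851 RefSeq windows of the same length. That share is per window, whereas Nfkb2 has several, and Nfkb1 and Relb had none. Rel and Nfkb2 were picked after their changes were known, and a link between matches and changes was not tested. In the Rela window, of the same length, 0 matches were found, which says only that these letters are not in it. Except for the place before start 2, the places of Nfkb2 overlap annotated exons of Nfkb2. These matches are a description of letters, and binding was not measured.

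Nfkb1, the p105 and p50 gene, was at 256, 246 and 257 CPM in the unstimulated libraries, at 685, 732 and 665 in the stimulated and at 558, 572 and 584 in the inhibitor libraries. The 3 groups did not overlap, and the inhibitor libraries lay between the other groups, nearer to the stimulated ones. How many of all genes have groups without overlap was not counted, for this gene or the members below. The gene model Gm43430 (25.7 to 55.3 CPM) overlaps Nfkb1 on the same strand and shares 0 exon bases with it.

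Rel, which encodes c-Rel, was at 99.1, 113 and 97.6 CPM before stimulation, 187, 174 and 175 after it and 326, 279 and 284 with the inhibitor. The groups did not overlap, in the order unstimulated, stimulated, inhibitor, and inhibitor library 1 was the highest of all 9.

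Rela, which encodes the p65 subunit, was at 92.7, 79.0 and 93.2 CPM before stimulation, 74.9, 78.3 and 78.8 after it and 132, 133 and 129 with the inhibitor. Unstimulated library 2 lay just above the stimulated libraries, and every inhibitor library lay above all 6 others. In relative terms Rela had the narrowest range of the 5 members over the 9 libraries.

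Nfkb2, the p100 and p52 gene, was at 85.4, 81.7 and 76.1 CPM before stimulation, 281, 347 and 301 after it and 445, 510.2 and 522 with the inhibitor. The groups did not overlap, and the range over the 9 libraries was wider than that of any other member in relative terms. Psd, on the opposite strand, shares 299 bases of exon with Nfkb2 (6.52% of its exon bases) and had at most 50 counts in any library, against at least 3421 for Nfkb2. A second opposite-strand gene, AC114539.1, covers 11.6% of the exon bases of Nfkb2 and was not analysed here.

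Relb, the partner of p52, was at 36.1, 35.03 and 35.3 CPM in unstimulated, 47.2, 59.4 and 53.5 in stimulated and 74.1, 97.6 and 95.1 in inhibitor libraries. The groups again did not overlap, and inhibitor library 1 was the lowest of its group for Relb as it was for Nfkb2.

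**Figure D1:**
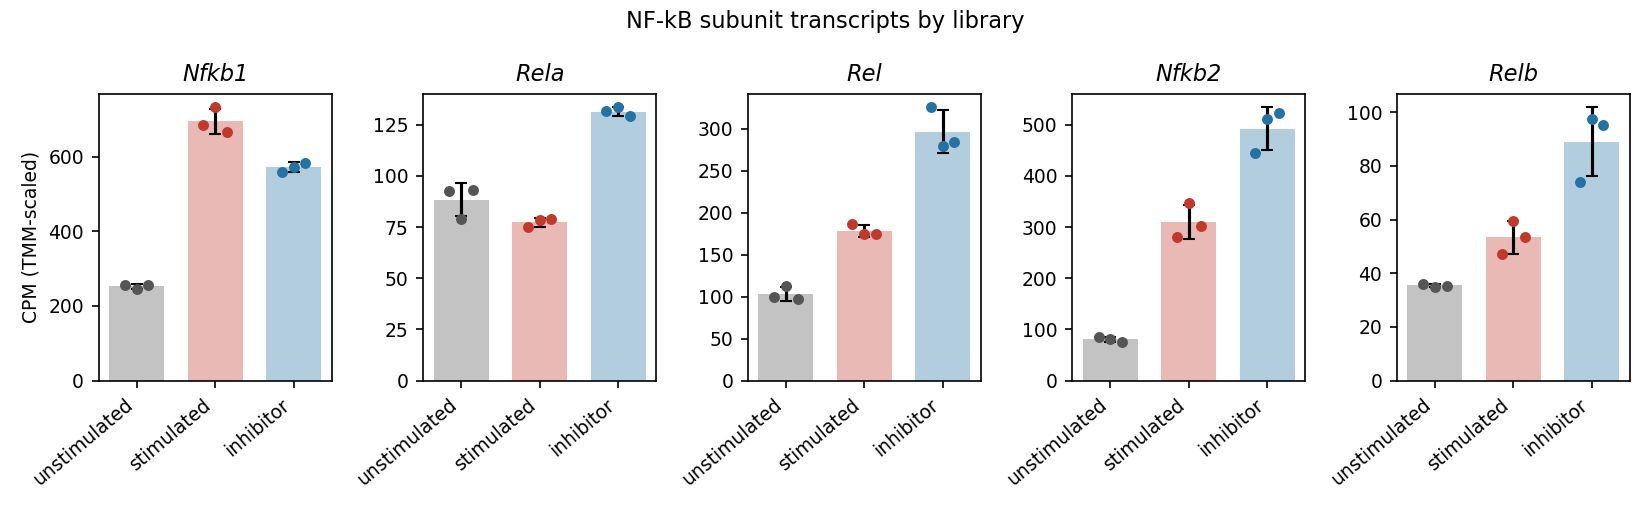
TMM-scaled CPM of each subunit gene (vertical axis, its own range per panel) in the 3 groups; points are libraries, bars the mean and error lines the SD (n = 3). Rel, Nfkb2 and Relb step upward from unstimulated to stimulated to inhibitor libraries, Nfkb1 is highest in stimulated libraries at 694 CPM, and Rela is highest in inhibitor libraries at 131 CPM.

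The first comparison asked how subunit transcripts differed between stimulated and freshly isolated cells. Of the 5 members 4 rose and 0 fell, with Rela not passing the test, where 66.0% of all genes tested were called, 32.0% as higher and 34.0% as lower. Nfkb2 rose 3.82-fold, from 81.0 ± 4.67 to 309.5 ± 33.8 CPM (SD, n = 3), with a log2 fold change of 1.93 ± 0.10 (approximate SE, edgeR adjusted p = 1.9e-07). Nfkb1 rose 2.75-fold, from 253 ± 6.33 to 694 ± 34.4 CPM (log2 1.46 ± 0.07, adjusted p = 1.2e-07). These changes were larger than those of 75.4% and 65.6% of all genes, so that many other genes moved as far.

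Rel rose 1.73-fold (103 ± 8.34 to 179 ± 7.02 CPM; log2 0.79 ± 0.09, edgeR adjusted p = 2.6e-05). Relb rose less (35.5 ± 0.534 to 53.4 ± 6.09 CPM, log2 0.59 ± 0.12, edgeR adjusted p = 0.0016). The changes of Rel and Relb were larger in size than those of 42.5% and 32.8% of all genes. Rela was at 88.3 ± 8.09 and 77.3 ± 2.10 CPM (log2 -0.19 ± 0.08, adjusted p = 0.0554). The Rela value depended on the processing and on a single library, since the fall passed the test under 5 of 17 alternatives. These were upper-quartile scaling (log2 -0.42, edgeR adjusted p = 0.0032), library totals only (-0.38, adjusted p = 0.0028) and the fit without unstimulated library 2 (-0.27, adjusted p = 0.0093). The others were DESeq2 and a filter of at least 10 CPM. The summed myeloid, B cell, NK cell and erythroid markers were all lower in the stimulated libraries, and their part in these values was not tested.

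In the second comparison, of inhibitor-treated with stimulated cells, 4 members rose and 1 fell, where 44.5% of all genes were called, 21.7% as higher and 22.8% as lower. The 4 rising members did so by closely similar amounts, larger in size than the changes of 55.2% (Nfkb2) to 60.2% (Rela) of all genes. Rela rose 1.70-fold, from 77.3 ± 2.10 to 131 ± 2.13 CPM (SD, n = 3; log2 0.77 ± 0.08, edgeR adjusted p = 5.3e-05). Relb rose 1.67-fold, from 53.4 ± 6.09 to 89.0 ± 12.9 CPM (log2 0.74 ± 0.12, adjusted p = 8.2e-04). Rel rose 1.66-fold, from 179 ± 7.02 to 296 ± 25.5 CPM (log2 0.73 ± 0.09, adjusted p = 1.3e-04), and Nfkb2 1.59-fold, from 309.5 ± 33.8 to 492 ± 41.7 CPM (log2 0.67 ± 0.10, adjusted p = 4.5e-04).

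Nfkb1 was the member that fell, from 694 ± 34.4 to 571 ± 13.2 CPM (log2 -0.28 ± 0.07, edgeR adjusted p = 0.0086). This change was larger in size than those of 26.8% of all genes. All 3 inhibitor libraries lay below all stimulated ones, but the call was lost under upper-quartile scaling (-0.15, adjusted p = 0.172) and with library totals only (-0.19, adjusted p = 0.0784). Without inhibitor library 1, which stood apart, the log2 changes were -0.27 for Nfkb1, 0.76 for Rela, 0.66 for Rel, 0.74 for Nfkb2 and 0.85 for Relb, each still called.

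Markers of other cells moved in this comparison too, with 7 of 15 myeloid and dendritic cell markers higher and 1 lower, 6 of 12 B cell markers higher and 0 lower, and 6 of 6 NK cell markers lower. The part of these cells in the subunit values was not tested. The 7 myeloid and dendritic cell markers that were higher were Ctss (23.3 to 53.2 CPM), Zbtb46 (7.46 to 39.3), Cybb (3.02 to 13.1), Mpeg1 (1.88 to 10.3), Lyz2 (1.20 to 7.63), Flt3 (0.669 to 5.85) and Csf1r (0.284 to 0.999), and Fcer1g was lower (6.32 to 2.21). Of this list only Zbtb46, at 10.2 CPM in unstimulated cells, had a higher mean with the inhibitor than before stimulation. Of the 7 without a call, Xcr1, Clec9a, Cd209a and Siglech had 0 counts in the stimulated group and were under 0.1 CPM in the inhibitor group.

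Inhibitor-treated cells were above unstimulated cells in all 5 members, where 52.4% of genes were called, 26.3% as higher and 26.1% as lower. The log2 fold changes were 2.60 ± 0.10 for Nfkb2 (edgeR adjusted p = 7.2e-08), 1.52 ± 0.09 for Rel (adjusted p = 6.8e-07), 1.33 ± 0.12 for Relb (adjusted p = 1.2e-05), 1.18 ± 0.07 for Nfkb1 (adjusted p = 7.6e-07) and 0.57 ± 0.08 for Rela (adjusted p = 1.9e-04). As folds these were 6.08, 2.88, 2.51, 2.26 and 1.49. Lower in the same comparison were 14 of 15 myeloid and dendritic cell markers (1 was higher), 11 of 12 B cell, 6 of 6 NK cell and 4 of 5 erythroid markers, and their part in these values was not tested. The 3 comparisons share groups and are not independent of each other.

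**Figure D2:**
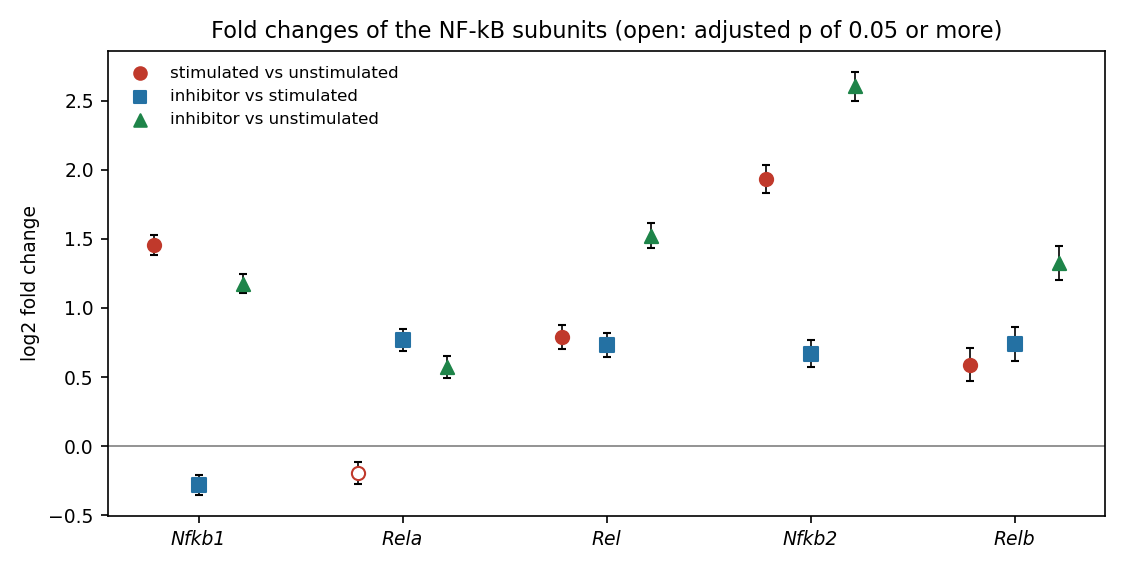
Log2 fold changes (vertical axis) of the 5 subunit genes in the 3 comparisons, with approximate SE as error lines; filled symbols have an edgeR adjusted p under 0.05. Rela in stimulated against unstimulated cells is the open symbol at -0.19, and Nfkb1 is the only member below 0 in inhibitor against stimulated cells, at -0.28.

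Levels of different genes can be compared only per length, here as RPKM (CPM per kilobase of exon). Over the union of annotated exons, the order in unstimulated cells was Rela (28.7 ± 2.63 RPKM), Nfkb1 (20.96 ± 0.525), Nfkb2 (17.7 ± 1.02), Rel (13.8 ± 1.12) and Relb (9.13 ± 0.137), with no overlap between neighbours. In stimulated cells Nfkb2 came first (67.5 ± 7.38 RPKM) and Nfkb1 second (57.6 ± 2.85), followed by Rela (25.2 ± 0.684) and Rel (23.9 ± 0.941), which overlapped, and Relb (13.7 ± 1.57). With the inhibitor Nfkb2 was at 107 ± 9.11 RPKM, Nfkb1 at 47.4 ± 1.10, Rela at 42.8 ± 0.694, Rel at 39.7 ± 3.42 and Relb at 22.9 ± 3.32, with overlap between Rela and Rel alone.

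The place of Nfkb1 in this order depends on its length, since the union of its exons over 10 transcripts is 12061 bases and its longest transcript 4149. Per base of longest transcript Nfkb1 came first in every group, at 60.9 RPKM in unstimulated and 167 in stimulated cells, and in inhibitor-treated cells (138 ± 3.19) it overlapped Nfkb2 (128 ± 10.9). Relb stayed last with either length.

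As a share of the summed RPKM of the 5 genes, Rela went from 31.8 ± 2.29% in unstimulated to 13.4 ± 0.641% in stimulated and 16.5 ± 0.729% in inhibitor-treated cells (n = 3). The share of Nfkb2 was 19.6 ± 1.06%, 35.9 ± 1.82% and 41.2 ± 1.97% in the same order. The Nfkb1 share was 23.2 ± 0.348%, 30.6 ± 0.866% and 18.2 ± 0.338%, the Rel share 15.3 ± 1.60%, 12.8 ± 1.14% and 15.3 ± 1.93%, and the Relb share 10.1 ± 0.121%, 7.30 ± 0.463% and 8.78 ± 0.972%. Nfkb2 was thus the member whose share grew in each step, and Rela the largest of the 5 shares in unstimulated cells by this length. These shares describe transcripts of unlike length and say nothing of protein.

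**Figure D3:**
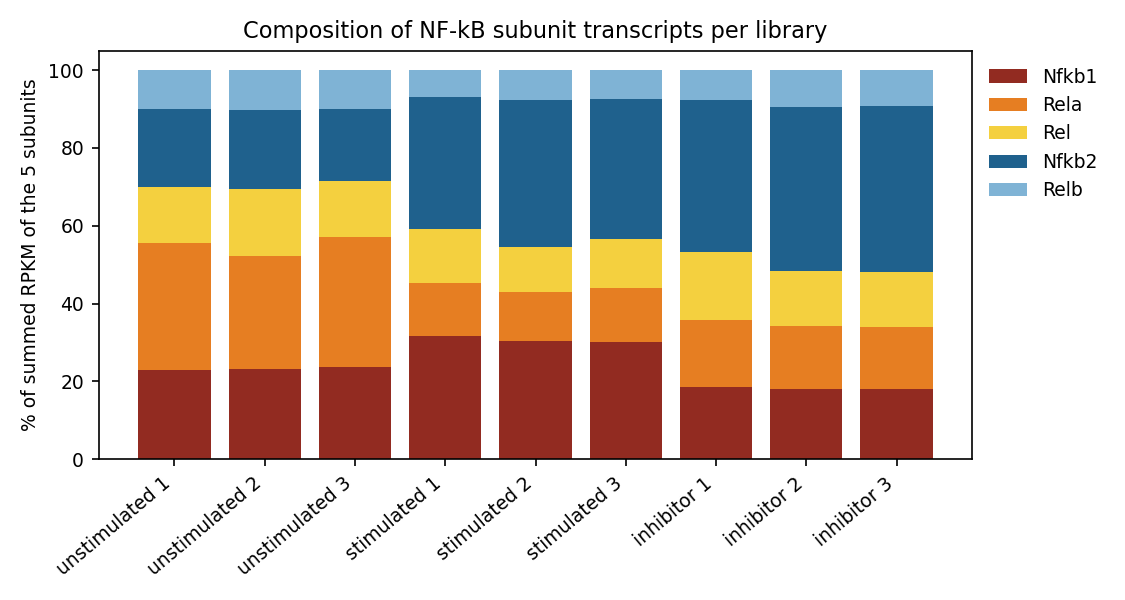
Percent of the summed RPKM of the 5 subunit genes (vertical axis, union of exons as length) taken by each gene in each of the 9 libraries. The Nfkb2 segment averages 19.6% in unstimulated, 35.9% in stimulated and 41.2% in inhibitor libraries, and the Rela segment 31.8%, 13.4% and 16.5%.

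Canonical and noncanonical subunits were set against each other within each library, where the scaling factors nearly cancel. The mean log2 CPM of Nfkb2 and Relb minus that of Nfkb1, Rela and Rel was -1.26, -1.28 and -1.36 in unstimulated libraries 1 to 3. It was -0.88, -0.59 and -0.72 in the stimulated and -0.67, -0.31 and -0.32 in the inhibitor libraries. All stimulated and inhibitor libraries lay above the unstimulated ones, while inhibitor library 1 fell within the range of the stimulated libraries. Group means were -1.30 ± 0.05, -0.73 ± 0.15 and -0.43 ± 0.20.

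Single counterparts across the routes were compared in the same way. The ratio of Nfkb2 to Nfkb1 reads, the precursor gene of each route, was 0.334, 0.333 and 0.296 in unstimulated, 0.410, 0.474 and 0.453 in stimulated and 0.797, 0.892 and 0.894 in inhibitor libraries. No group overlapped another for this ratio. The ratio of Relb to Rela was 0.389, 0.444 and 0.379 in unstimulated, 0.631, 0.759 and 0.679 in stimulated and 0.564, 0.731 and 0.736 in inhibitor libraries. Here the stimulated and inhibitor libraries overlapped, and both lay above the unstimulated ones.

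Within the canonical group the ratio of Rel to Rela was 1.07, 1.43 and 1.05 in unstimulated, 2.49, 2.23 and 2.22 in stimulated and 2.48, 2.09 and 2.20 in inhibitor libraries. The higher ratio after stimulation was also present with the inhibitor. These ratios, and the differences between them, were not tested.

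**Figure D4:**
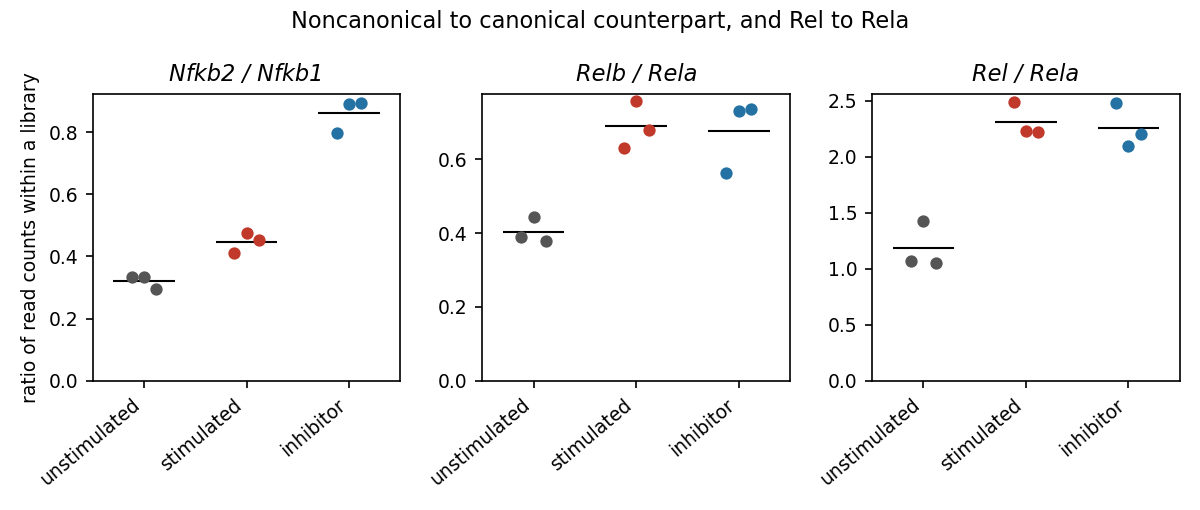
Ratios of read counts within each library (vertical axes from 0) for Nfkb2 to Nfkb1, Relb to Rela and Rel to Rela; points are libraries and lines group means. The mean Nfkb2 to Nfkb1 ratio is 0.321, 0.445 and 0.861 in unstimulated, stimulated and inhibitor libraries, whereas the other ratios overlap between stimulated and inhibitor libraries.

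Around the subunits, 69 other genes of the pathway were looked at in 9 lists, all of them tested. Against unstimulated cells, 32 were higher and 26 lower in stimulated cells (84.1% called, where 66.0% of all genes were called, 32.0% as higher and 34.0% as lower). With the inhibitor, 36 were higher and 12 lower than in stimulated cells (69.6% called, where 44.5% of all genes were, 21.7% as higher and 22.8% as lower), with 7 lower under upper-quartile scaling. These shares of all genes are the background for the counts in each list. The median log2 change over the 69 genes was 0.14 and 0.33, beside -0.05 and 0.03 over all genes.

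Of the 11 TNF family ligands, which act on receptors that signal to NF-kB, 8 rose and 3 fell with stimulation (median log2 1.26). Lta, for lymphotoxin alpha, went from 7.08 to 264 CPM (log2 5.22, edgeR adjusted p = 2.8e-09). With the inhibitor 8 were higher and 1 lower than in stimulated cells (median 1.29). Tnfsf4, the OX40 ligand, went from 0.514 CPM after stimulation to 20.3 with the inhibitor (log2 5.31, adjusted p = 2.1e-06), and Tnfsf11, or RANKL, from 14.7 to 49.9 CPM (log2 1.77, adjusted p = 2.2e-04). Cd70 had 0 counts in unstimulated cells (floor of 3 counts over the group, 0.0226 CPM), was at least 14.6-fold higher in stimulated and 327-fold higher in inhibitor-treated cells, and rose from 0.330 to 7.39 CPM with the inhibitor (log2 4.48, adjusted p = 1.2e-04). With Cd70 at its bound the list medians against unstimulated cells were still 1.26 and 2.82. Tnf itself, a well-known activator of the canonical route, rose from 11.96 to 54.1 CPM with stimulation (log2 2.18, adjusted p = 6.5e-07).

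Receptors of the same family divided with stimulation, with 3 of 9 higher and 6 lower. Tnfrsf8, or CD30, went from 1.80 to 155 CPM (log2 6.43), Tnfrsf9, or 4-1BB, from 8.44 to 451 CPM (log2 5.74) and Tnfrsf4, or OX40, from 9.03 to 372 CPM (log2 5.37). With the inhibitor these 3 fell, Tnfrsf8 to 1.49 CPM (log2 -6.69, edgeR adjusted p = 3.3e-07) and Tnfrsf9 to 180 CPM (log2 -1.33, adjusted p = 1.3e-05), and 3 others rose. Those that rose were Cd27, from 32.0 to 76.9 CPM (log2 1.27, edgeR adjusted p = 9.7e-05), Tnfrsf11a, from 0.191 to 2.07 CPM (log2 3.42, adjusted p = 7.2e-05), and Cd40. Cd40, which B and myeloid cells also express, went from 1.08 to 8.05 CPM (log2 2.89, adjusted p = 0.0012).

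On the antigen receptor route, Prkcq, the T cell kinase PKC-theta, fell from 368 to 107 CPM with stimulation (log2 -1.79, edgeR adjusted p = 3.65e-07). Traf6, a ubiquitin ligase that acts upstream of IKK, rose from 76.6 to 135 CPM (log2 0.82, adjusted p = 2.1e-05). Of the 5 genes of this list 2 rose and 3 fell. With the inhibitor 3 of 5 were higher and 0 lower, among them Traf6 at 182 CPM (log2 0.43, edgeR adjusted p = 0.0032).

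Of 8 genes of the IKK complex and upstream kinases, 1 rose and 4 fell with stimulation, and 5 were higher and 1 lower with the inhibitor. Ikbkb, which encodes the kinase that IMD-0354 is known to inhibit, was at 270 ± 20.7 CPM before stimulation, 109 ± 6.85 after it and 161 ± 5.17 with the inhibitor (log2 -1.31 and 0.57, edgeR adjusted p = 5.1e-07 and 3.7e-04). Chuk, the IKK-alpha gene, rose from 64.7 to 88.3 CPM with stimulation (log2 0.45, adjusted p = 2.4e-04). Ikbke, for the IKK-related kinase IKK-epsilon, fell from 232 to 83.1 CPM (log2 -1.48, adjusted p = 3.8e-06) and rose to 199 CPM with the inhibitor (log2 1.26, adjusted p = 3.8e-05). Chuk was at 76.8 CPM with the inhibitor (log2 -0.20, adjusted p = 0.0382), a call lost under 11 of 17 alternatives, and of the 5 higher genes Tab2 lost its call under 10.

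Of the genes that control the noncanonical route, 2 of 6 rose and 2 fell with stimulation (66.7% called, where 66.0% of all genes were). With the inhibitor 3 were higher and 1 lower. Map3k14, the NIK gene, was the lower one, at 87.7 CPM before stimulation, 70.6 after it and 54.2 with the inhibitor. Its log2 changes were -0.31 with stimulation (edgeR adjusted p = 0.0272, lost under 5 of 17 alternatives) and -0.38 with the inhibitor (adjusted p = 0.0167, lost under 4 of 17). Of the 3 higher genes, Traf3 lost its call under 5 and Otud7b under 3 of the 17. Between inhibitor-treated and unstimulated cells Map3k14 fell by 0.69 (log2, edgeR adjusted p = 4.2e-04), while Nfkb2 and Relb were higher in the same comparison. Birc2, for the ubiquitin ligase cIAP1, was at 103, 68.1 and 94.2 CPM in the 3 groups (log2 -0.60 and 0.47).

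Among the 6 IkB genes, 2 rose and 2 fell with stimulation, and 4 were higher and 1 lower with the inhibitor (median log2 0.04 and 0.76). The share called with stimulation, 66.7%, was near the 66.0% of all genes. Nfkbia, for IkB-alpha, the main cytoplasmic inhibitor, was at 166 ± 20.7 and 153 ± 5.56 CPM before and after stimulation (log2 -0.12, edgeR adjusted p = 0.39) and rose to 267 ± 36.1 CPM with the inhibitor (log2 0.81, adjusted p = 3.7e-04). Nfkbiz, for the nuclear protein IkB-zeta, fell from 206 to 54.2 CPM with stimulation (log2 -1.93, adjusted p = 3.1e-08) and rose to 98.5 CPM with the inhibitor (log2 0.86, adjusted p = 1.4e-05). Nfkbie, for IkB-epsilon, fell from 41.5 to 29.1 CPM and was at 57.9 CPM with the inhibitor (log2 0.99, edgeR adjusted p = 1.5e-04). Nfkbib, for IkB-beta, rose from 26.7 to 59.8 CPM with stimulation. Bcl3, a nuclear IkB protein that binds p50 and p52, rose from 26.4 to 105 CPM with stimulation (log2 1.99, adjusted p = 1.5e-05) and fell to 34.5 CPM with the inhibitor (log2 -1.60, adjusted p = 1.75e-04). Bcl3 and Nfkb1 were thus both higher after stimulation and lower with the inhibitor, as were other pathway genes such as Il2ra and Myc. The call of Nfkb1 with the inhibitor was lost under 2 of 17 alternatives.

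In the list of 5 deubiquitinases and feedback genes, 2 rose and 3 fell with stimulation. Tnfaip3, for the NF-kB inhibitor A20, fell from 650 to 190 CPM (log2 -1.78, edgeR adjusted p = 1.3e-05), and N4bp1 from 92.1 to 41.2 CPM. With the inhibitor 2 were higher and 1 lower: N4bp1 was at 88.2 CPM (log2 1.10, adjusted p = 2.7e-05), and the lower one, Otulin, lost its call under 11 of 17 alternatives. The 5 genes of the SCF beta-TrCP ubiquitin ligase, which acts on IkB proteins and p100, had 2 higher and 1 lower with stimulation, and 1 higher and 1 lower with the inhibitor. Of these calls, Btrc lost both of its own (lower with stimulation, higher with the inhibitor) under 6 of 17 alternatives each, and Rbx1, lower with the inhibitor, under 8.

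The list of 14 known NF-kB target genes had 10 members higher and 2 lower with stimulation (median log2 1.44), and 7 higher and 3 lower with the inhibitor (median 0.44). This list is no full set of targets. IkB and feedback genes stand in the lists above, where Tnfaip3 and Nfkbiz fell, Nfkbia was not called and Bcl3 rose with stimulation. Il2ra, Csf2, Irf4 and Il2 rose most with stimulation, Irf4 from 60.0 to 1068 CPM (log2 4.15). With the inhibitor the largest changes were those of Ccl3, Il2, Ccl4 and Irf1, all higher, such as Irf1 from 89.8 to 341 CPM (log2 1.93, edgeR adjusted p = 3.1e-06). The 3 that fell were Il2ra, from 1517 to 563 CPM (log2 -1.43, adjusted p = 2.9e-06), Sod2 (log2 -0.90) and Myc (log2 -0.43). Between inhibitor-treated and unstimulated cells, 13 of the 14 were higher and 0 lower. Of the 69 genes, 36 were higher and 12 lower in that comparison (69.6% called, where 52.4% of all genes were).

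**Figure D5:**
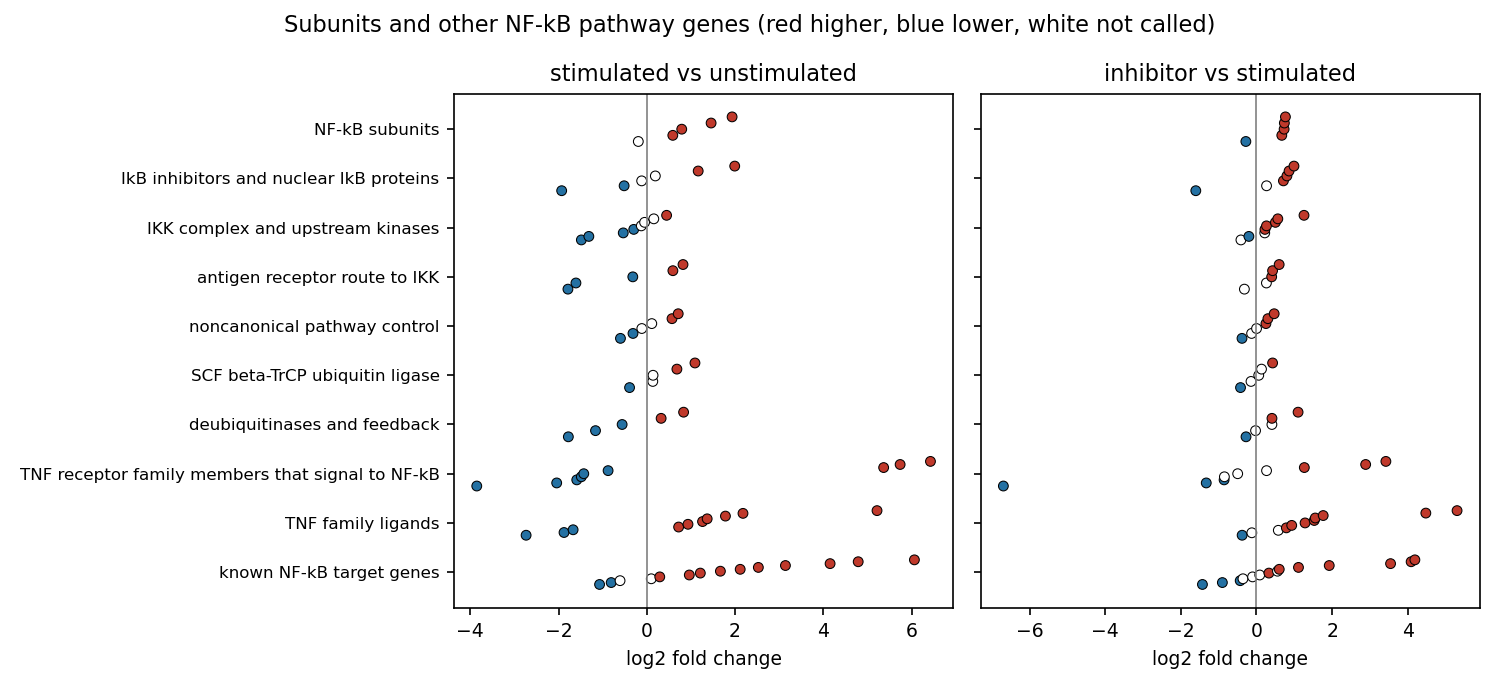
Log2 fold changes (horizontal axes, own range per panel) of the subunits and of 69 other pathway genes in 9 lists, for stimulated against unstimulated (left) and inhibitor against stimulated cells (right); each point is a gene, red where called higher, blue where called lower and white where not called. The NF-kB subunits lie between -0.19 and 1.93 on the left and between -0.28 and 0.77 on the right, and Cd70, with 0 counts in unstimulated cells, is left out of the left panel.

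Genes with the most similar pattern were sought among 9005 others whose log2 CPM averaged 3 or more, by the Pearson correlation of log2 CPM over the 9 libraries. The measure mostly reflects the 3 group levels and is given as a description. Among the 3 nearest to Nfkb1 were Myc (r = 0.999) and Bcl2l2 (0.998), and Myc was at 88.0 CPM before stimulation, 382 after it and 283 with the inhibitor. Those nearest to Rel were Ahi1 (0.996), Prepl (0.996) and Stt3a (0.995), and those nearest to Nfkb2 were Tm9sf4 (0.998), Gfod1 (0.996) and Ergic1 (0.996). For Relb they were Tbc1d10b (0.992), Grpel1 (0.991) and Copg1 (0.986), and for Rela Synj2 (0.992), Irgm2 (0.989) and Mdn1 (0.989). Among the members, Rel and Nfkb2 were the most alike (0.951) and Nfkb1 and Rela the least (0.106).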

How the data were processed

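The authors deposited whole-number read counts per gene for the 9 libraries, with no normalization visible in them. Libraries were made from total RNA with a stranded kit that depletes ribosomal RNA, per the labels' protocols. Per the submitters' processing notes, STAR 2.7.1a, featureCounts and mm10 were used. The annotation, strand setting and handling of mates were not given in the sources used here. Even numbers made up 70.6% to 78.5% of low counts (1 to 10) per library, as when both mates of a fragment are counted. Castaneus reads were compared with a C57BL/6 build, which can lower counts. Gene names, positions and lengths came from GENCODE M21 (49326 of 49671 identifiers matched); 0 columns were left unused.

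Genes were filtered with filterByExpr of edgeR 4.0.16 (R 4.3.3) and scaled by TMM. All 9 libraries entered 1 quasi-likelihood fit (glmQLFit and glmQLFTest), in which group was the single term. P-values are two-sided and adjusted by the Benjamini-Hochberg method over 18374 genes; "called", "rose" and "fell" mean an adjusted p under 0.05. The approximate SE is the log2 fold change over the square root of F. Log2 CPM used a prior count of 2. Replicates of a group were no duplicates (chi-square over its degrees of freedom 32.7 to 132), and each counted as 1 sample. The script was tested on simulated data. Named pathway genes were the 4 largest called changes per list and comparison with a mean of at least 1 CPM, with Ikbkb, Map3k14 and Chuk always given; Nfkbia after stimulation, the target genes that fell with the inhibitor, Tnfrsf4 and the called myeloid markers were added after their values were seen, and some genes under this rule are not reported here. The members and lists were chosen with earlier results of these data known. Alternatives were DESeq2 1.42.0, limma voom (limma 3.58.1), other scalings and filters, fits on 2 groups, a replicate block and leaving out each library.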

Additional observations from a re-analysis of the deposited data

How the results depend on the processing

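Of the 15 tests of members, 13 kept their direction and their side of the threshold under all 17 alternatives. The exceptions were Rela with stimulation, called as lower with DESeq2 (-0.24), upper-quartile scaling (-0.42), library totals only (-0.38) and genes of at least 10 CPM (-0.38), with -0.27 to -0.15 over the fits that left out 1 library, and Nfkb1 with the inhibitor, not called under upper-quartile scaling (-0.15) or library totals only (-0.19). The cause was not tested. Upper-quartile scaling moved the median log2 change of all genes from -0.05 to -0.27 with stimulation and from 0.03 to 0.16 with the inhibitor. Genes called numbered 6948 in place of 12126 with stimulation and 5852 in place of 9626 for inhibitor against unstimulated cells when only genes of at least 10 CPM were tested, which leaves 8942 genes. Pathway genes lower with the inhibitor numbered 7 in place of 12 under upper-quartile scaling and 8 to 13 over the fits that left out 1 library; these counts under alternatives were added after the data were seen. Of 99 results for named pathway genes, 13 lost their call under at least 1 alternative and 0 reversed.

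With the longest transcript as length, the shares of Nfkb1, Rela, Rel, Nfkb2 and Relb were 43.8%, 23.3%, 9.94%, 15.1% and 7.79% in unstimulated, 52.9%, 9.01%, 7.58%, 25.4% and 5.14% in stimulated and 36.2%, 12.7%, 10.5%, 33.6% and 7.12% in inhibitor-treated cells.

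The labels do not say that replicate numbers pair the samples. Deviations of same-numbered libraries correlated at -0.19 to 0.0047 for unstimulated against the other groups and at 0.144, 0.107 and 0.0782 for stimulated against inhibitor libraries. In the latter every library correlated best with its own number, a hint from the data and not from the design, and 1 of the 3 pairs was under 0.1. A fit with the replicate block called 11707, 7582 and 9125 genes in place of 12126, 8182 and 9626, and changed no call of a member (Nfkb1 with the inhibitor -0.28, adjusted p = 0.0236).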
